A study of Mus musculus with 6 samples.

Results

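Matricellular proteins are secreted into the extracellular matrix but act mainly on cells and on other matrix molecules. The genes described here are the 10 for tenascins (Tnc, Tnxb), thrombospondins (Thbs1, Thbs2, Thbs3, Thbs4, Comp), fasciclin domain proteins (Postn, Tgfbi) and SPARC (Sparc). They were chosen by symbol, and all 10 were found among the 24061 gene rows of the count table. Bulk RNA sequencing measured transcripts of whole mouse lung in 2 groups of 3 libraries. The control group had the genotype CCSP/-, and the other group had the genotype CCSP/TGFalpha, here called TGFalpha. Both groups carried CCSP and received doxycycline over 3 weeks. The abbreviation CCSP stands for club cell secretory protein, whose promoter can drive a doxycycline-dependent transgene in lung epithelium, and TGFalpha is a ligand of the epidermal growth factor receptor. The sources used here give neither strain, sex, age and the form of the transgene nor whether a library is 1 animal, so a p-value covers only the spread among these libraries.

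As background, matricellular proteins are scarce in most healthy adult tissue and abundant where tissue is developing, injured or scarring. Tenascin C is a large multi-armed glycoprotein that binds fibronectin and integrins, whereas tenascin X lies on collagen fibrils and is needed for their normal spacing. Thrombospondins 1 and 2 form trimers that bind the receptors CD36 and CD47, and thrombospondin 1 can also activate latent TGF-beta. Thrombospondins 3 and 4 and COMP form pentamers and are best known from cartilage, tendon and muscle. Periostin and the TGFBI protein share fasciclin domains, and SPARC binds collagen and takes part in its assembly. Several of these genes are well known targets of TGF-beta, a factor distinct from TGFalpha.

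Depth was similar in the groups, with 21479006 to 24914322 counts per library. Levels are given in CPM, the count per 1e+06 counts of a TMM-scaled library, with mean ± SD over n = 3 libraries a group. Of 16089 genes tested with edgeR, 810 rose and 530 fell in TGFalpha lungs at a Benjamini-Hochberg adjusted p under 0.05. The library labels were checked on Tgfa, with 25.8 ± 2.94 CPM for controls against 27.5 ± 2.09 CPM for TGFalpha lungs (log2 fold change 0.09 ± 0.16 (SE), edgeR adjusted p = 0.739). The mouse Tgfa row did not separate the genotypes, and it would hold transgene reads only as far as their sequence matches. Sftpc, the surfactant gene that defines alveolar type 2 cells, stood at 3456 to 7540 CPM across the 6 libraries, so each held this lung marker.

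Tnc and Thbs2 were among the strongest rises of the whole table, Tgfbi and Sparc rose more than 2-fold, and Tnxb fell. Of the 9 genes that passed the filter on low counts, 4 rose at an adjusted p under 0.05, where 5.03% of all tested genes rose. One, Tnxb, fell, where 3.29% of all tested genes fell. The other 4, Thbs1, Thbs3, Thbs4 and Postn, did not pass the test, and Comp had too few counts to be tested. The TGFalpha libraries lay wholly above the control libraries for 5 of the 9, Tnc, Thbs2, Thbs4, Tgfbi and Sparc, against 17.7% of all tested genes, and wholly below them for Tnxb, against 15.5%. The median log2 fold change of these 9 was 1.15, beside 0.01 for all tested genes. Thbs4 passed the filter only through its TGFalpha libraries, and the median of the other 8 was 0.76. These counts and medians therefore describe the tested genes and not the whole set.

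**Figure D1:**
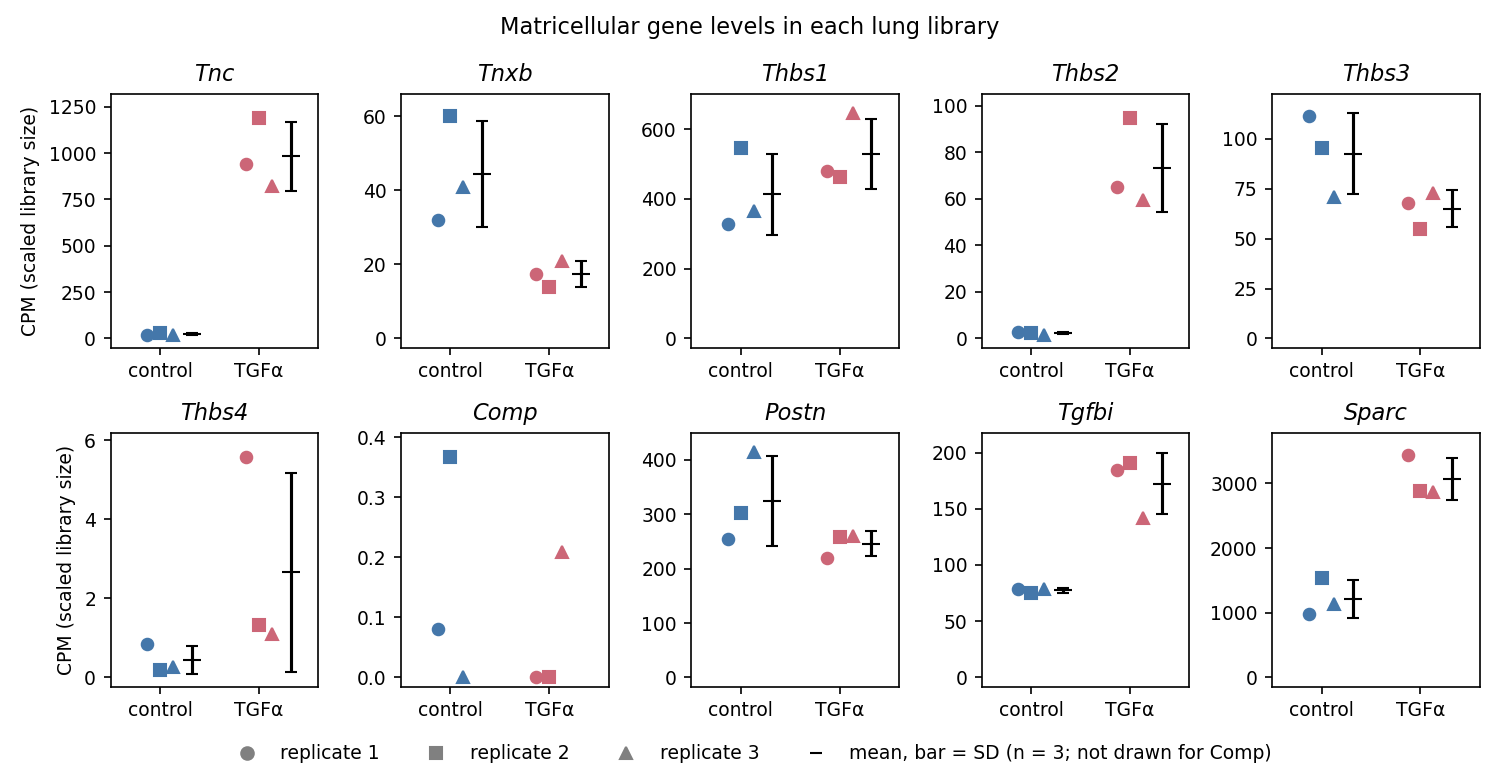
Level of each of the 10 genes in each lung library. The vertical axes show CPM on scaled library sizes, with a separate scale for each gene. Points are libraries (control blue, TGFalpha red, symbols by replicate number) and bars are the mean ± SD of 3 libraries. No mean is drawn for Comp, which had 0 to 8 counts per library. The 2 groups are fully apart for Tnc, Tnxb, Thbs2, Thbs4, Tgfbi and Sparc.

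**Figure D2:**
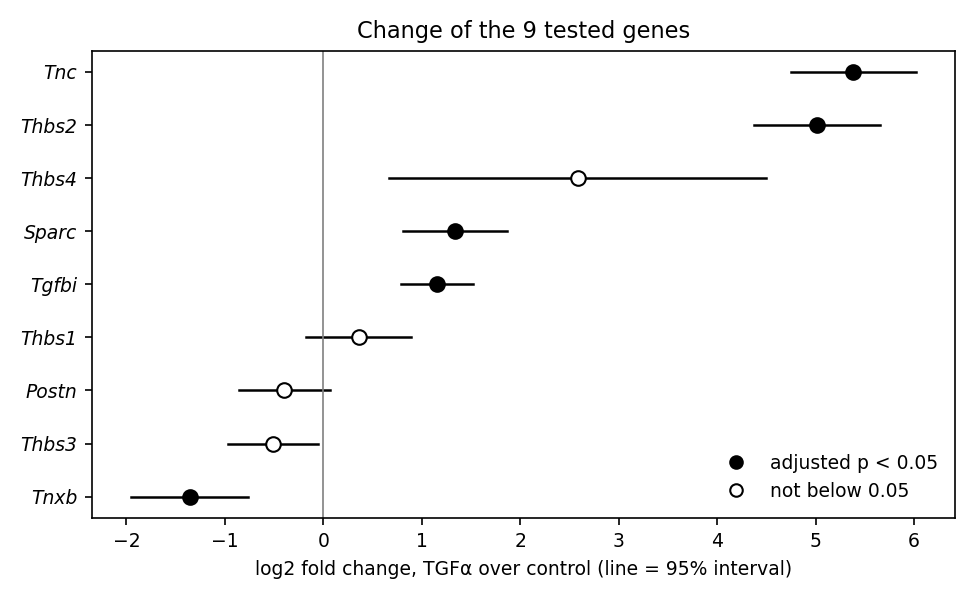
Log2 fold change of TGFalpha over control lungs for the 9 tested genes, from edgeR. Points are estimates and lines are 95% intervals. Filled points have an adjusted p under 0.05. Tnc and Thbs2 lie at 5.38 and 5.01, far to the right of the rest, and the interval of Thbs4 is the widest.

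The tenascins moved in opposite directions. Tnc (gene ID 21923; GRCm38, chromosome 4, 63959785 to 64047015, minus strand, 26 exons in its longest coding transcript) was at 19.6, 30.9 and 20.2 CPM in control replicates 1 to 3. It stood at 938, 1188 and 822 CPM in TGFalpha replicates 1 to 3. Every TGFalpha library was far above every control, and replicate 2 was the highest in both groups. The mean went from 23.6 ± 6.37 to 983 ± 187 CPM, a 41.6-fold rise (log2 fold change 5.38 ± 0.28 (SE), 95% interval 4.75 to 6.01, edgeR adjusted p = 0.000246). Its p was the second smallest of all genes tested, and its fold change was the 23rd largest among the 810 rises. By mean CPM, without correction for transcript length, Tnc moved from place 7409 among the genes of control lungs to place 75 in TGFalpha lungs. Whole-lung RNA cannot tell more cells that make a transcript from more transcript per cell, here or for any gene below. The lncRNA gene 8030451A03Rik overlaps Tnc on the opposite strand and shares 1.15% of the 50-base windows of the Tnc transcript. Reads of this lncRNA were not analysed here. With no strand setting given, those from the shared stretches cannot be told apart from reads of Tnc.

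Tnxb (gene ID 81877; chromosome 17, 34660453 to 34719815, plus strand, 41 exons) encodes tenascin X. Its level was 32.0, 60.1 and 41.0 CPM in control replicates 1 to 3, against 17.3, 13.8 and 20.9 CPM in TGFalpha replicates 1 to 3. The lowest control library was above the highest TGFalpha library, and the control libraries were widely spread. The mean fell from 44.3 ± 14.3 to 17.3 ± 3.54 CPM, so that control lungs had 2.56 times the TGFalpha level (log2 fold change -1.36 ± 0.26 (SE), 95% interval -1.95 to -0.76, edgeR adjusted p = 0.0226). Leaving out control replicate 2 or 3, or TGFalpha replicate 1 or 2, each ended this call (adjusted p 0.0658 to 0.0838). The partial copy Tnxa shares 6.23% of the 50-base windows of the Tnxb transcript, and reads from these stretches could belong to either.

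The trimeric thrombospondins are described next. Thbs2 (gene ID 21826; chromosome 17, 14665500 to 14694262, minus strand, 22 exons) encodes thrombospondin 2, which limits angiogenesis and takes part in collagen fibril assembly. Its level was 2.65, 2.48 and 1.64 CPM in control replicates 1 to 3, from 66, 54 and 36 counts. In TGFalpha replicates 1 to 3 it was 65.2, 94.7 and 59.5 CPM, from 1535, 2302 and 1420 counts. All TGFalpha libraries lay far above all controls. The mean rose 32.4-fold, from 2.26 ± 0.538 to 73.1 ± 18.9 CPM (log2 fold change 5.01 ± 0.28 (SE), 95% interval 4.38 to 5.65, edgeR adjusted p = 0.000306). Its p was the third smallest in the table, directly after that of Tnc, and no stretch of 50 bases of its transcript was shared with another gene.

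Thbs1 (gene ID 21825; chromosome 2, 118111876 to 118127133, plus strand, 22 exons) encodes thrombospondin 1, the family member known as an activator of latent TGF-beta. It was already abundant in control lungs, at 328, 545 and 366 CPM in replicates 1 to 3, against 479, 463 and 645 CPM in TGFalpha replicates 1 to 3. The groups overlapped, since control replicate 2 was above TGFalpha replicates 1 and 2. Mean levels were 413 ± 116 and 529 ± 101 CPM, and the difference did not pass the test (log2 fold change 0.36 ± 0.23 (SE), edgeR adjusted p = 0.361). The 95% interval of the ratio ran from 0.883 to 1.86 times the control level, a range that holds both a slight fall and a moderate rise.

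The start regions of Tnc and Thbs2, the 2 genes with the largest rises, are shown together with that of Tnxb, which fell. They are the 170 bases before the transcription start in RefSeq (GRCm38.p6), written 5′ to 3′ on the strand of the gene, with capitals marking motif matches on either strand. Tnc is at chr4:64047016-64047185 on the minus strand, Thbs2 at chr17:14694263-14694432 on the minus strand, and Tnxb at chr17:34670365-34670534 on the plus strand, within the wider span of that gene.
Tnc: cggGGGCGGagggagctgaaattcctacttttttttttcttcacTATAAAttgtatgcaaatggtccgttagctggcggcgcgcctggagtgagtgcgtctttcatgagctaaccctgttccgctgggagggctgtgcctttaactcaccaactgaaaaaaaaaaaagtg
Thbs2: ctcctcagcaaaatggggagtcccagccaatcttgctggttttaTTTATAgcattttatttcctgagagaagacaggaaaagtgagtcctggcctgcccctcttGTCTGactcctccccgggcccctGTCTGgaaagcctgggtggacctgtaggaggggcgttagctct
Tnxb: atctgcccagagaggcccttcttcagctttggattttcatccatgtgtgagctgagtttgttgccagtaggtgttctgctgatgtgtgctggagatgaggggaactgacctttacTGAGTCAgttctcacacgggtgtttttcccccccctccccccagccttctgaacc
RefSeq entries were matched for 8 of the 10 genes, other than Thbs1 and Comp. In each, the 250 bases before the start were searched on both strands for 8 motifs. The core promoter element known as the TATA box was read as TATAAA, and the site of the AP-1 family of leucine zipper factors as TGANTCA. For the SMAD proteins, which carry signals of TGF-beta to the genome, the letters were CAGAC. The E-box, which basic helix-loop-helix factors such as Twist1 bind, was read as CANNTG, and the GC box of the zinc finger protein Sp1 as GGGCGG. The ETS family, to which Etv4 belongs, was represented by CCGGAA, and the TEAD factors, partners of the coactivator Yap1, by CATTCC. The last motif was the CArG box of the serum response factor. No match to one motif overlapped a match to another. E-boxes are not in capitals above. A TATAAA match stood 126 bases before the start in both Tnc and Thbs2 and in none of the other 6 genes, where 12.4% of 32851 RefSeq windows of the same length hold one. It lay on the strand of the gene in Tnc and on the opposite strand in Thbs2. Thbs2 also held 2 SMAD boxes, at 66 and 43 bases before the start, and Tnc held none in this window. Tnxb alone held an AP-1 match, which starts 55 bases before its start site (6.75% of windows). The SMAD box was present in 6 of the 8 genes (42.2% of windows), the E-box in 6 (66.2%) and the GC box in 4 (32.7%). Thbs4 held the TEAD site, in 2 matches that share 1 base (12.6% of windows), and no ETS site or CArG box (1.47%) was found in the 8 windows. A match describes letters and does not show that a factor binds there.

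Among the pentameric thrombospondins, none passed the test. By edgeR, 1 of the 2 tested was higher and 1 lower at an unadjusted p under 0.05, where 14.2% of all tested genes were higher and 12.8% lower. DESeq2 called 1 as a rise, beside 7.63% of the genes it tested, and limma-voom called none, beside 4.98% rises and 3.72% falls. Thbs3 (gene ID 21827; chromosome 3, 89215180 to 89226841, plus strand, 23 exons) was at 111, 95.4 and 71.0 CPM in control replicates 1 to 3 and at 67.7, 54.6 and 72.7 CPM in TGFalpha replicates 1 to 3. The groups overlapped only in that control replicate 3 was below TGFalpha replicate 3. Means were 92.6 ± 20.4 and 65.0 ± 9.32 CPM (log2 fold change -0.51 ± 0.20 (SE), 95% interval -0.97 to -0.05, edgeR unadjusted p = 0.0335, adjusted p = 0.148). The transcript shares 4.36% of its 50-base windows with Mtx1, a neighbouring gene with a log2 fold change of 0.18 ± 0.18 (SE) (adjusted p = 0.548).

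Thbs4 (gene ID 21828; chromosome 13, 92751586 to 92794818, minus strand, 22 exons) was scarce in all lungs. It had 21, 4 and 6 counts in control replicates 1 to 3, and 131, 32 and 26 counts in TGFalpha replicates 1 to 3. These correspond to 0.843, 0.183 and 0.274 CPM in controls and 5.57, 1.32 and 1.09 CPM in TGFalpha lungs. The lowest TGFalpha library was above the highest control, and replicate 1 was far above the other libraries in each group. The log2 fold change was 2.58 ± 0.84 (SE), with a 95% interval of 0.67 to 4.50 and an edgeR adjusted p of 0.0939. DESeq2 called the rise (adjusted p = 0.0143).

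Transcripts of skeletal muscle, a tissue where Thbs4 is known to be made, were also highest in replicate 1 of both groups. The summed level of 12 skeletal muscle markers was 1828 CPM in control replicate 1 and 2964 CPM in TGFalpha replicate 1, against 54.0 to 71.6 CPM in the other 4 libraries. With both of these libraries left out, a choice made after seeing the data, the log2 fold change of Thbs4 was 2.36 (adjusted p = 0.15). Without TGFalpha replicate 1 alone it was 1.45 (adjusted p = 0.358), and without control replicate 1 alone 3.50 (adjusted p = 0.0675). The part of skeletal muscle in the Thbs4 difference was not tested.

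**Figure D3:**
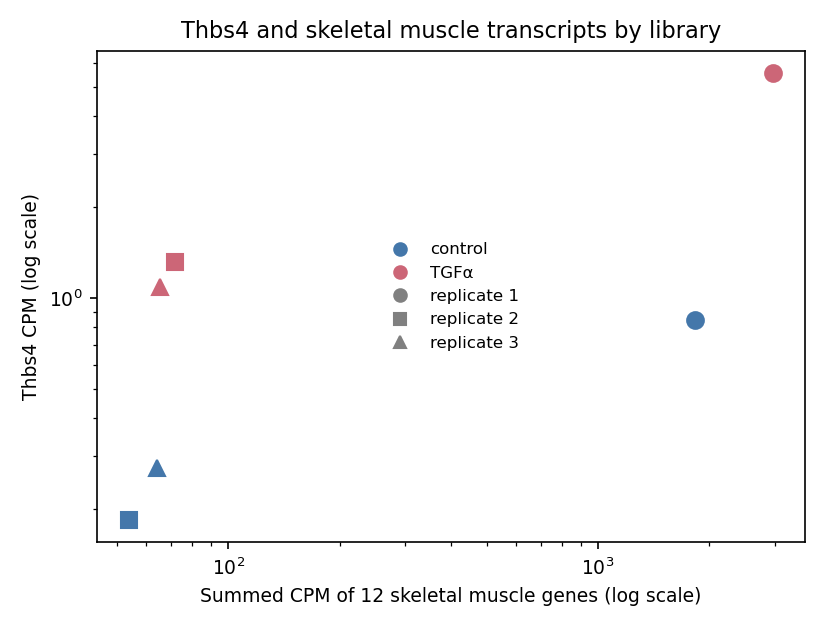
Thbs4 level of each library (vertical axis, CPM, log scale) against the summed level of 12 skeletal muscle marker genes (horizontal axis, CPM, log scale). Colours mark the groups and symbols the replicate numbers. Replicate 1 of each group stands far to the right, at 1828 and 2964 CPM. Every TGFalpha library lies above every control in Thbs4 level.

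Comp (gene ID 12845; chromosome 8, 70373548 to 70382066, plus strand, 19 exons), the cartilage member, was near 0. It had 2, 8 and 0 counts in control replicates 1 to 3 and 0, 0 and 5 counts in TGFalpha replicates 1 to 3. At this depth no difference between the groups was detectable. Of 10 chondrocyte markers, Acan, Matn1, Col9a1 and Ucma were at 0 in every library, and the list summed to 1.23 to 2.29 CPM in controls and 2.89 to 3.00 CPM in TGFalpha lungs. Tendon markers summed to 24.1 to 29.6 CPM in controls and 20.2 to 26.0 CPM in TGFalpha lungs. Of the 4 tested 1, Chad, fell (log2 fold change -0.73, edgeR adjusted p = 0.0404), beside 3.29% of all tested genes.

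The genes with fasciclin domains parted as well. Tgfbi (gene ID 21810; chromosome 13, 56609586 to 56639359, plus strand, 17 exons) is named for its induction by TGF-beta. It was at 78.3, 75.2 and 78.9 CPM in control replicates 1 to 3, the tightest controls of the set, and at 184, 191 and 141 CPM in TGFalpha replicates 1 to 3. The groups were fully apart, with TGFalpha replicate 3 the lowest of its group. Its mean rose 2.22-fold, from 77.5 ± 1.98 to 172 ± 27.0 CPM (log2 fold change 1.15 ± 0.16 (SE), 95% interval 0.79 to 1.52, edgeR adjusted p = 0.00687). With any 1 library left out the call was kept, at adjusted p 0.0073 to 0.0494.

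Postn (gene ID 50706; chromosome 3, 54359267 to 54391041, plus strand, 22 exons) encodes periostin, a widely used marker of fibrosis and of airway disease. Its level was 254, 302 and 415 CPM in control replicates 1 to 3 and 219, 259 and 260 CPM in TGFalpha replicates 1 to 3. The highest TGFalpha libraries lay just above the lowest control, and control replicate 3 stood above all others. Means were 324 ± 82.6 and 246 ± 23.5 CPM, and the difference did not pass the test (log2 fold change -0.40 ± 0.20 (SE), edgeR adjusted p = 0.248). Its 95% interval, -0.86 to 0.07, reaches up to 1.05 times the control level, so a rise of the size seen in Tgfbi or Sparc lies outside it.

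Sparc (gene ID 20692; chromosome 11, 55394159 to 55420080, minus strand, 10 exons) was the most abundant of the 10 genes in both groups. Control replicates 1 to 3 were at 975, 1536 and 1134 CPM, and TGFalpha replicates 1 to 3 at 3446, 2889 and 2868 CPM. Every TGFalpha library was above every control. The mean rose 2.52-fold, from 1215 ± 289 to 3068 ± 328 CPM (log2 fold change 1.34 ± 0.23 (SE), 95% interval 0.81 to 1.86, edgeR adjusted p = 0.0158). By mean CPM, again without correction for transcript length, it moved from place 55 to place 13 among all genes. The call was lost without control replicate 3 (adjusted p = 0.081), without TGFalpha replicate 1 (0.0557) and without replicate 1 of both groups (0.0644), while the fold change stayed between 1.10 and 1.54 on the log2 scale in these and all other alternatives.

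Within the set, levels of different genes were compared as CPM per kilobase of transcript. In control lungs the order was led by Sparc, at 528 ± 126 CPM per kilobase, followed by Postn at 101 ± 25.8 and Thbs1 at 70.6 ± 19.8. Then came Thbs3 at 29.0 ± 6.38, Tgfbi at 28.5 ± 0.728, Tnxb at 3.63 ± 1.17 and Tnc at 3.32 ± 0.896 CPM per kilobase. Thbs2, at 0.383 ± 0.0912, Thbs4, at 0.136 ± 0.112, and Comp, at 0.0617 ± 0.0798 CPM per kilobase, closed it. The libraries of Postn and Thbs1, of Thbs3 and Tgfbi, of Tnxb and Tnc, and of Thbs4 and Comp overlapped, so these neighbours are not ordered beyond their spread. With coding length in place of transcript length, Thbs3 and Tgfbi changed places, as did Tnxb and Tnc.

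In TGFalpha lungs Tnc had moved from the seventh place to the second, at 138 ± 26.3 CPM per kilobase, below Sparc at 1334 ± 143 and above Thbs1 at 90.4 ± 17.2. Postn, at 76.7 ± 7.34, and Tgfbi, at 63.5 ± 9.94 CPM per kilobase, came next and overlapped, as did Thbs1 and Postn. Thbs3 stood at 20.4 ± 2.92, Thbs2 at 12.4 ± 3.20, Tnxb at 1.42 ± 0.290 and Thbs4 at 0.831 ± 0.789 CPM per kilobase, with Tnxb and Thbs4 overlapping, and Comp was last at 0.0289 ± 0.0501. Tnc made up 0.431 ± 0.0448% of the summed level per kilobase of the 10 genes in controls and 7.99 ± 1.66% in TGFalpha lungs. The share of Postn was 13.4 ± 3.67% and 4.45 ± 0.722%. The summed CPM of the 10 genes was 2193 ± 427 in controls and 5156 ± 266 in TGFalpha lungs, and Sparc held more than 50% of it in every library.

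**Figure D4:**
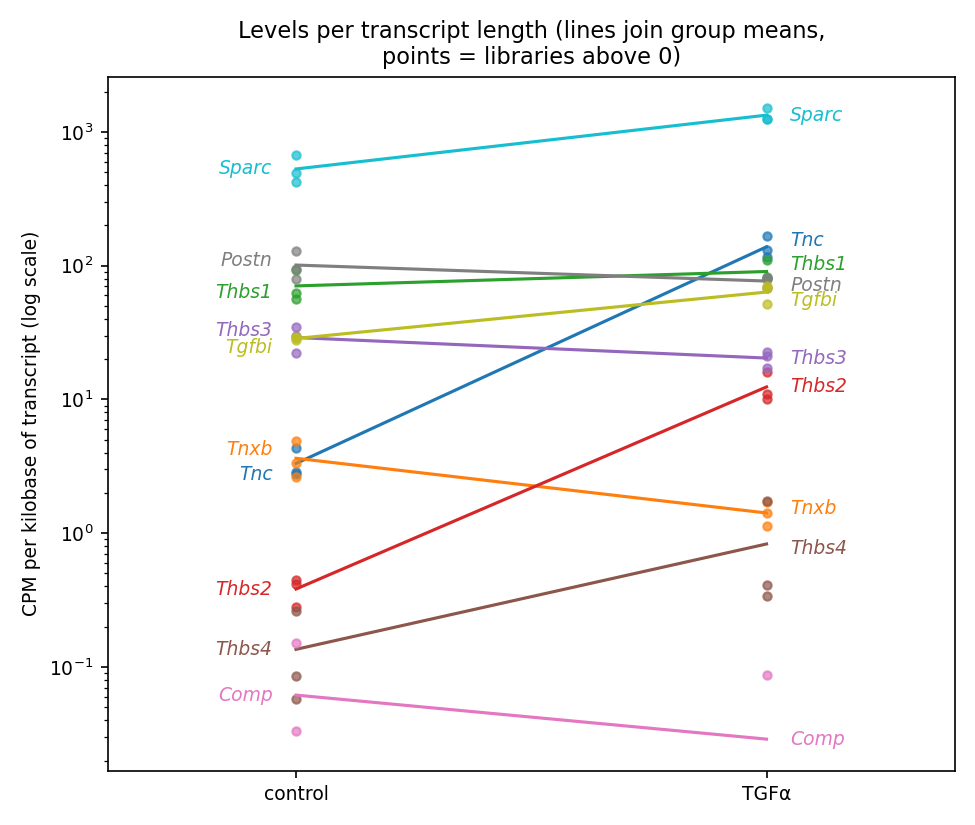
Level per kilobase of transcript of the 10 genes in the control and TGFalpha groups (vertical axis, CPM per kilobase, log scale). Points are libraries above 0 and lines join the means of 3 libraries. Tnc climbs from 3.32 to 138 CPM per kilobase and crosses 5 other genes, Sparc stays on top, and Tnxb drops below Thbs2.

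Ratios of counts within a library need no scaling between libraries, and 5 pairs of related genes were compared in this way. The ratio of Tnc to Tnxb was 0.614, 0.515 and 0.494 in control replicates 1 to 3, against 54.3, 86.1 and 39.4 in TGFalpha replicates 1 to 3. The difference of this count ratio was 6.72 on the log2 scale. Counts are not divided by length, so a ratio below 1 does not make Tnc the lower gene. Per kilobase of transcript, Tnc and Tnxb overlapped in controls, with 2.76 against 2.62 CPM in control replicate 1. The log2 ratio of Thbs2 to Thbs1 differed by 4.63, that of Thbs4 to Thbs3 by 2.93, and that of Postn to Tgfbi by -1.51. Postn had 3.24, 4.02 and 5.26 times the counts of Tgfbi in controls and 1.19, 1.36 and 1.84 times in TGFalpha lungs. For each of these 4 ratios the groups did not overlap, and the exact two-sided permutation p was 0.1, the smallest that 3 against 3 libraries can give (0.125 after Benjamini-Hochberg adjustment over the 5 ratios). The log2 ratio of Thbs4 to Comp, which rests on few counts, differed by 3.48 with overlapping groups (exact permutation p = 0.3).

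Relatives of these proteins moved in part. Of 8 tested genes for other members of the same families and for osteopontin, 3 rose and 1 fell. Of all tested genes, 5.03% rose and 3.29% fell. The list had a median log2 fold change of -0.03. Spp1, the osteopontin gene, rose from 267 ± 56.1 to 2269 ± 653 CPM (log2 fold change 3.09 ± 0.29 (SE), edgeR adjusted p = 0.00155). Fstl1, the follistatin-like relative of SPARC, rose from 211 ± 119 to 1254 ± 390 CPM (adjusted p = 0.0123). Sparcl1, its closest relative, rose from 340 ± 69.7 to 616 ± 38.1 CPM (adjusted p = 0.0335). Tnn, which encodes tenascin N, fell as Tnxb did, from 9.76 ± 0.971 to 3.97 ± 1.32 CPM (log2 fold change -1.29 ± 0.29 (SE), adjusted p = 0.0344), and the remaining tenascin gene, Tnr, was too low to test. Sparcl1 did not pass with any 1 library removed (adjusted p 0.0624 to 0.133), nor did Fstl1 without control replicate 2 or 3 (adjusted p up to 0.0678). No gene of this list was called as a fall without control replicate 1, 2 or 3 or TGFalpha replicate 1 or 2 by edgeR (at an unadjusted p under 0.05, lower levels were found for 2, 1, 3, 2 and 1).

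Receptors for these proteins showed no common direction. Of 26 tested genes, 4 rose and 2 fell, beside 5.03% and 3.29% of all tested genes, with a median log2 fold change of 0.09. Itgb5, an integrin chain that binds vitronectin and periostin, rose from 60.2 ± 8.59 to 139 ± 23.4 CPM (edgeR adjusted p = 0.00891). Itga9, a chain of a tenascin C receptor, rose from 60.1 ± 3.15 to 108 ± 13.8 CPM (adjusted p = 0.0171), and Itgb8, a chain of an integrin that activates latent TGF-beta, from 0.915 ± 0.526 to 5.89 ± 1.35 CPM (adjusted p = 0.0189). Itgb8 passed the filter on low counts only through its TGFalpha libraries, and 3 of the other 25 receptor genes rose. The fibronectin receptor chain gene Itga5 was the other rise (log2 fold change 1.48, adjusted p = 0.0227). Cd36, the thrombospondin receptor, fell from 2984 ± 599 to 1529 ± 278 CPM (log2 fold change -0.97 ± 0.24 (SE), adjusted p = 0.0447). Itgb6, a chain of the epithelial integrin that activates latent TGF-beta, fell from 144 ± 18.9 to 89.4 ± 13.1 CPM (adjusted p = 0.0461). Cd47, the other thrombospondin receptor, was at 237 ± 65.6 and 184 ± 43.3 CPM (adjusted p = 0.369). The number of receptor genes that rose dropped to 2 without control replicate 2 and to 1 without control replicate 3 or TGFalpha replicate 2. None fell by edgeR with control replicate 2 or 3, or TGFalpha replicate 1 or 2, removed (at an unadjusted p under 0.05, lower levels were found for 6, 6, 7 and 8). With all libraries, DESeq2 called 7 as falls, where 7.30% of the genes it tested fell.

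Of 24 tested genes for matrix binding partners of matricellular proteins, 16 rose by edgeR, beside 5.03% of all tested genes. Besides matrix molecules, the list holds the enzyme genes Bmp1 and Lox, which rose, and the cell surface genes Sdc2 and Cd44, which were not called. None of the 24 fell by edgeR, DESeq2 or limma-voom, and the median log2 fold change was 1.43. At an unadjusted edgeR p under 0.05, 1 gene, Ncan, was lower, beside 12.8% of all tested genes. Ncan passed the filter on low counts only through its control libraries. Of the other 23 genes 16 rose, with a median of 1.46. Vcan, which encodes the proteoglycan versican, rose from 16.1 ± 3.35 to 417 ± 173 CPM (log2 fold change 4.69 ± 0.34 (SE), edgeR adjusted p = 0.000621). Col5a2, a chain of the collagen that starts fibrils, rose from 110 ± 8.84 to 656 ± 145 CPM (adjusted p = 0.000892), and Eln, the elastin gene, from 75.4 ± 7.41 to 255 ± 13.8 CPM (adjusted p = 0.00104). Not all partners moved: Col12a1 and Col14a1, collagens of the class that binds to fibril surfaces as tenascin X does, were named after their values were seen and had log2 fold changes of 0.12 ± 0.26 and 0.46 ± 0.23 (SE; adjusted p = 0.79 and 0.245). Without control replicate 3 the list had 12 rises.

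Genes for latent TGF-beta and its carriers gave 3 rises among 9 tested by edgeR, and no fall. Of all tested genes, 5.03% rose and 3.29% fell. At an unadjusted edgeR p under 0.05, 1 was lower, beside 12.8% of all tested genes. DESeq2 called 1 fall, where 7.30% of the genes it tested fell, and limma-voom called none, beside 3.72%. The list had a median log2 fold change of 0.29. Tgfb3, which encodes a TGF-beta ligand, rose from 15.8 ± 1.84 to 77.8 ± 17.2 CPM (adjusted p = 0.00134), while Tgfb1 was at 77.3 ± 13.7 and 87.0 ± 21.2 CPM (adjusted p = 0.638). The genes of the latent TGF-beta binding proteins Ltbp2 and Ltbp3 rose by 1.54 ± 0.17 and 1.38 ± 0.17 (SE) on the log2 scale (adjusted p = 0.00302 and 0.0045).

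Proteases known to cut matricellular or related matrix proteins gave 5 rises among 11 tested by edgeR, and no fall. Of all tested genes, 5.03% rose and 3.29% fell. At an unadjusted edgeR p under 0.05, 1 was lower, beside 12.8% of all tested genes. DESeq2 and limma-voom called no fall, beside 7.30% and 3.72% of the genes they tested. The list had a median log2 fold change of 0.33. Adamts12, a metalloproteinase that cuts COMP, rose from 1.16 ± 0.246 to 39.7 ± 16.03 CPM (log2 fold change 5.09 ± 0.35 (SE), edgeR adjusted p = 0.000544). Mmp2, a gelatinase, rose from 106 ± 9.82 to 346 ± 51.1 CPM (adjusted p = 0.0019), and Mmp14, its membrane-bound activator, from 68.8 ± 4.02 to 299 ± 118 CPM (adjusted p = 0.00481). The other 2 rises were Adamts7, which also cuts COMP, and Adamts4.

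Regulators known for tenascin, periostin or thrombospondin promoters, or for fibroblast identity, gave 4 rises among 22 tested by edgeR, and no fall. Of all tested genes, 5.03% rose and 3.29% fell. At an unadjusted edgeR p under 0.05, 2 were lower, beside 12.8% of all tested genes. DESeq2 called 1 fall, where 7.30% of the genes it tested fell, and limma-voom called none, beside 3.72%. The list had a median log2 fold change of 0.23. Twist1, a mesenchymal transcription factor gene, was at 0.0803, 0 and 0 CPM in control replicates 1 to 3 and at 26.9, 18.9 and 13.9 CPM in TGFalpha replicates 1 to 3 (adjusted p = 0.000544). No fold is given for it because the controls held almost no counts. Sox9, a cartilage and progenitor cell factor gene, rose from 0.733 ± 0.201 to 15.8 ± 6.69 CPM (adjusted p = 0.00134), and Etv4, an ETS family gene, from 0.224 ± 0.201 to 11.7 ± 4.85 CPM (adjusted p = 0.00314). Smad3, a transducer of TGF-beta signals, was the fourth (log2 fold change 1.04 ± 0.14 (SE), adjusted p = 0.00603). Twist1, Etv4 and Fosl1 passed the filter only through their TGFalpha libraries and Twist2 only through its control libraries. Of the other 18 regulators 2 rose, with a median of 0.17, so the count of 4 describes the tested genes and is no support for a direction of the list. Smad2, a partner of Smad3, was at 83.1 ± 3.17 and 84.2 ± 3.11 CPM, with an adjusted p of 0.942.

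**Figure D5:**
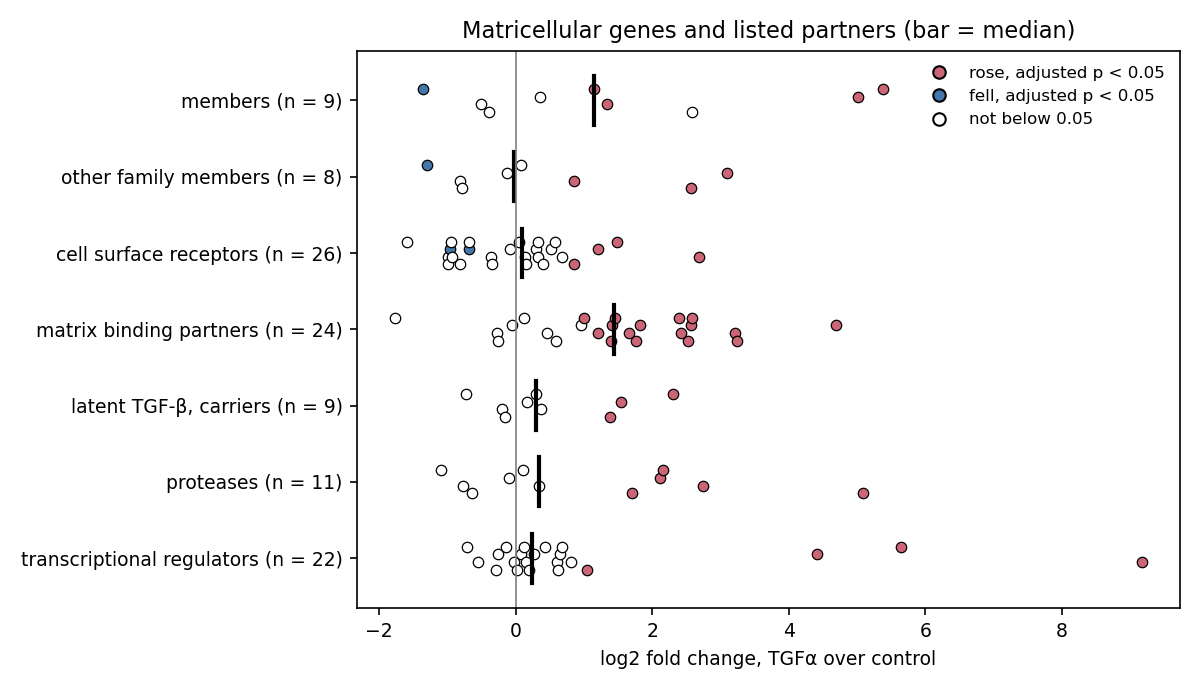
Log2 fold change of TGFalpha over control for the 9 tested matricellular genes and for the tested genes of 6 related lists (horizontal axis, edgeR). Each point is a gene, red where it rose and blue where it fell at an adjusted p under 0.05, and the bar is the list's median. The matrix partners have a median of 1.43 and no fall, and the receptors a median of 0.09. The point farthest to the right is Twist1, whose controls held almost no counts.

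Markers of cell types that could supply these transcripts were read in the same libraries. The 10 fibroblast markers summed to 944 to 1058 CPM in controls and 2078 to 3075 CPM in TGFalpha lungs. Of them 3, Col1a2, Dcn and Lum, rose, beside 5.03% of all tested genes. Col1a2, Dcn and Col14a1 are also on the list of matrix binding partners, so these lists are not separate observations. The 7 fibroblast markers that did not rise summed to 406 to 620 CPM in controls and 510 to 647 CPM in TGFalpha lungs, with overlapping groups. Among these 7, the receptor genes Pdgfra and Pdgfrb had log2 fold changes of 0.29 and -0.04 (adjusted p = 0.442 and 0.941). The 8 smooth muscle and myofibroblast markers summed to 216 to 312 CPM in controls and 316 to 757 CPM in TGFalpha lungs, with Tagln up and Myh11 down. These groups lay only just apart. The highest sum was in TGFalpha replicate 1, the library with the most skeletal muscle transcripts, while control replicate 1 had the lowest. The part of skeletal muscle in these sums was not tested. The 7 mesothelial markers measured summed to 114 to 395 CPM and 392 to 503 CPM, with control replicate 3 the lowest. Of these only Wt1, a mesothelial transcription factor gene, rose, from 11.2, 12.7 and 0.731 CPM in the controls to 144, 131 and 85.0 CPM in TGFalpha lungs (log2 fold change 3.86, adjusted p = 0.0274). No other gene of this list was called. Msln, Gpm6a and Rspo1 had log2 fold changes of -0.30, -0.31 and -0.49, and Upk3b, Upk1b and Lrrn4 of 0.76, 1.87 and 0.63. Endothelial markers summed to 2231 to 3992 CPM in controls and 1143 to 2055 CPM in TGFalpha lungs. Of these 10 markers 5 fell, beside 3.29% of all tested genes, in the same lungs as Tnxb and Cd36. Platelet markers, of a cell rich in thrombospondin 1 protein, summed to 39.0 to 73.3 CPM in controls and 30.0 to 39.7 CPM in TGFalpha lungs. Of these 8 genes 1, Gp1bb, rose (log2 fold change 1.47, edgeR adjusted p = 0.0239), beside 5.03% of all tested genes. Another, Ppbp, fell (log2 fold change -1.22, edgeR adjusted p = 0.0491), beside 3.29%. The part of any of these cell types in the changes above was not tested.

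For each of the 5 called genes, the tested genes with the most similar level over the 6 libraries were found by Pearson's r of log2 CPM. These r values are descriptions over 6 points in 2 groups, and they include the difference between the groups. Closest to Tnc were Arhgdia (r = 0.999), B3galt1 and Angptl7. Angptl7 went from 0.514 ± 0.327 to 277 ± 10.6 CPM, whereas Arhgdia tracked Tnc with a log2 fold change of only 0.26. Thbs2 was closest to Pdgfc (r = 0.999), Ccdc80 and Ror2 (log2 fold changes 2.64, 4.09 and 3.26). The direction of such genes follows from their choice by r. Many genes were about as close: r was above 0.99 for 38 genes with Thbs2, 37 with Tnc, 52 with Tgfbi, 18 with Sparc and 4 with Tnxb. Tgfbi was closest to Gbx2 (r = 0.998), Enc1 and Syn2, Sparc to Thsd7b (r = 0.998), Dync1i2 and Pigc, and Tnxb to Abcc3 (r = 0.992), Brd9 and C130074G19Rik.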

How the data were processed

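Per the labels' protocols, mouse lung RNA was purified on columns and sequenced from Illumina libraries. One deposited table holds the authors' raw counts per gene in 6 libraries, not normalized. The submitters' processing notes name bcl2fastq, CASAVA 1.8, TopHat, DESeq and the mouse build mm10. For the counting tool, its strand setting and the annotation, the sources used here give nothing. Gene IDs were named through a RefSeq table on GRCm38.p6, which matched 23976 of 24061 rows. The other 85 took 1.73 to 3.80% of the counts and stayed in totals and tests, and 4514 rows were 0 throughout. No 2 libraries of a group agreed within sampling noise.

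Genes were tested with edgeR 4.0.16 in R 4.3.3 (quasi-likelihood F test), using TMM scaling, filterByExpr, group as the only term and Benjamini-Hochberg adjustment over all tested genes. The step was also run on counts simulated from the fitted dispersion of these data. That run checked the size of the estimates and does not cover differences in tissue content between libraries. SE came from the coefficient and the F statistic. The common biological coefficient of variation was 0.295. Ratios used counts plus 0.5. Transcript lengths and shared 50-base windows came from the longest coding transcripts of GENCODE M21, promoters from RefSeq.

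The genes and lists were chosen with earlier results of these data known, so their values are descriptions. The text names the 10 genes, the 3 called genes with the smallest adjusted p of each related list, its largest call against the list's median, and the 3 genes most like each called gene. Tnn, Tnr, Cd47, Itga5, Itgb6, Tgfb1, Adamts4, Adamts7, Smad2, Smad3, Col12a1, Col14a1, Ncan and the named marker genes were added after their values were seen. The same holds for Bmp1, Lox, Sdc2 and Cd44. Of 214 listed genes, 212 had a row under their listed symbol. Lrrc33 was matched as Nrros, and Muc16 was not analysed here. Alternatives were DESeq2 1.42.0, limma-voom (limma 3.58.1), 2 other scalings, 2 other filters, a robust fit, the 20 most abundant genes left out, an adjusted p of 0.01, a replicate block, each library left out, and, added after seeing the data, both replicates 1 left out.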

Additional observations from a re-analysis of the deposited data

How the results depend on the processing

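Tnc, Thbs2 and Tgfbi kept their calls in all 16 alternative fits, with log2 fold changes of 5.22 to 5.63, 4.79 to 5.22 and 1.07 to 1.27. Tnxb lost its call in 4 of them and Sparc in 3, as given above. With 1 library left out, all calls numbered 238 to 1088 (204 to 606 rises, 34 to 482 falls), the matricellular calls 3 to 5 and their falls 0 to 1. Among related genes, such fits gave 1 to 2 rises and 0 to 1 falls for family members, 1 to 4 rises and 0 to 3 falls for receptors, and 0 to 1 falls for regulators. DESeq2 called 2506 genes (1281 rises, 1225 falls), with falls of 2 family members, 7 receptors, 1 latent TGF-beta carrier and 1 regulator. Falls were 7.30% of the genes that DESeq2 tested. By limma-voom, 4 receptors fell, beside 3.72% of all tested genes. Without both replicates 1, there were 473 calls (307 rises, 166 falls), 2 rises and 0 falls of receptors and 0 falls of family members by edgeR (at an unadjusted p under 0.05, 7 and 2 had lower levels). At an adjusted p under 0.01 there were 260 calls (227 rises, 33 falls), 3 of them matricellular with 0 falls by edgeR. With 1 library left out, the median log2 fold change ran from -0.13 to 0.10 for family members and from -0.12 to 0.16 for receptors, turning sign without control replicate 2 and TGFalpha replicate 2, and the cause was not tested. Coding length kept 6 of 10 places in the control order. Replicate numbers did not pair the libraries: same-numbered libraries deviated with correlations of 0.421, -0.0516 and 0.222, and not every library correlated best with its own number. A replicate block called 1470 genes, 6 of them matricellular with Thbs4 added (adjusted p = 0.031), 7 receptor falls and 1 regulator fall. The depth limits Comp and Thbs4, and 3 libraries per group limit every p.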
